A study of Saccharomyces cerevisiae W303 with 3 samples.

Results

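Mitochondria of budding yeast translate a handful of proteins, nearly all of them core subunits of the respiratory chain and the ATP synthase, on ribosomes of their own. The ribosomal RNAs of these mitoribosomes and one of their proteins, Var1p, come from mitochondrial DNA, while the other proteins are encoded in the nucleus, made in the cytosol and imported. Many descend from proteins of the bacterial ribosome and others are found only in mitochondria, and most are needed for growth on a respiratory carbon source such as glycerol. The genes of these proteins were chosen here by name, from the MRPL, MRPS, MRP and RSM series and from IMG1, IMG2, MNP1, YMR31, PET123, NAM9, MHR1, RML2, SWS2 and YML6. Of 6252 genes used on the array, 77 were members: 64 by the name printed in the array files, and 13 listed there under a systematic name whose RefSeq symbol is one of those names. They comprised 44 genes of the large subunit, 31 genes of the small subunit and 2 genes, YMR31 and MRP8, whose products are not placed in the ribosome. The 31 include RSM22, which is counted there by its name although it is classed as an assembly factor. RefSeq lists YMR31 as KGD4, a subunit of the α-ketoglutarate dehydrogenase complex.

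RNA came from 3 independent continuous cultures (Replicates 1, 2 and 3) of the haploid wild-type strain W303, a MATa strain with mutant alleles of LEU2, TRP1, CAN1, URA3, ADE2 and HIS3. All cultures ran at 30 °C in synthetic medium with glycerol as the main carbon source, a little glucose and yeast extract, and the antibiotics ampicillin and streptomycin, and each was sampled after 40 generations and again after 240 generations. The 2 samples of a culture were hybridized together to 2 arrays with the dyes Cy3 and Cy5 exchanged. A log2 ratio above 0 means more RNA at 240 than at 40 generations. The paper reports mutations in the evolved populations that differed between the cultures. They lay in HOG1 and MSY1 in Replicate 1, in HOG1 and URE2 in Replicate 2, and in MSY1 in Replicate 3. Their bearing on the values below was not tested. In RNA of a whole culture, a change in every cell cannot be told apart from a change in the share of some cells.

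Median spot intensities lay between 518 and 1027 over the arrays and channels, and 83.9% to 91.5% of the genes were above background, that is brighter than the surrounding area by over 2 of its SDs. The 5571 genes above background on at least 4 of 6 arrays at either time point were tested with limma on the 3 cultures, with Benjamini-Hochberg adjustment at 0.05. Over all these genes the log2 ratio had a median of -0.01. Of the members, 75 were tested, none had a saturated spot, and 68 were above background at both time points on all 6 arrays. The large-subunit genes MRPL25 and MRPL33 were above background on at most 1 array at either time point and were not tested.

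The mitoribosomal genes rose at 240 generations more often than genes in general. Among the 75 members tested, 39 were higher, 0 were lower and 36 did not pass (limma, adjusted p under 0.05). Over all genes tested, 13.8% were higher and 13.4% were lower, against 52% of the members higher. An unadjusted p under 0.05 (limma, either direction) was found for 51 members, and for 2402 of the 5571 genes tested. The median log2 ratio of the members was 0.49, with quartiles of 0.32 and 0.61 and a whole range from -0.24 to 1.25. On all 6 arrays, 52 members had a positive log2 ratio, whereas this held for 25.7% of all genes tested. With the members named in the array files alone, 33 of 62 were higher, that is 53.2%. Most changes were smaller than the criteria by which the study selected genes, a mean log2 ratio from 0.9 upwards with limits on p (0.05), on the SD (0.8) and on the SD divided by the square of the mean (0.4). Applied to the ratios computed here, with the p of limma, these were met by 4 members, MRPL44, MHR1, MRPL3 and MRP13, and by 2.39% of all genes tested. Applied to the deposited log2 ratios, they were met by 8 members, these 4 with MRPL23, MRPL31, MRP35 and IMG2, and by 3.59% of all genes tested. The paper itself names mitoribosomal proteins within a group of genes it found upregulated.

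**Figure D1:**
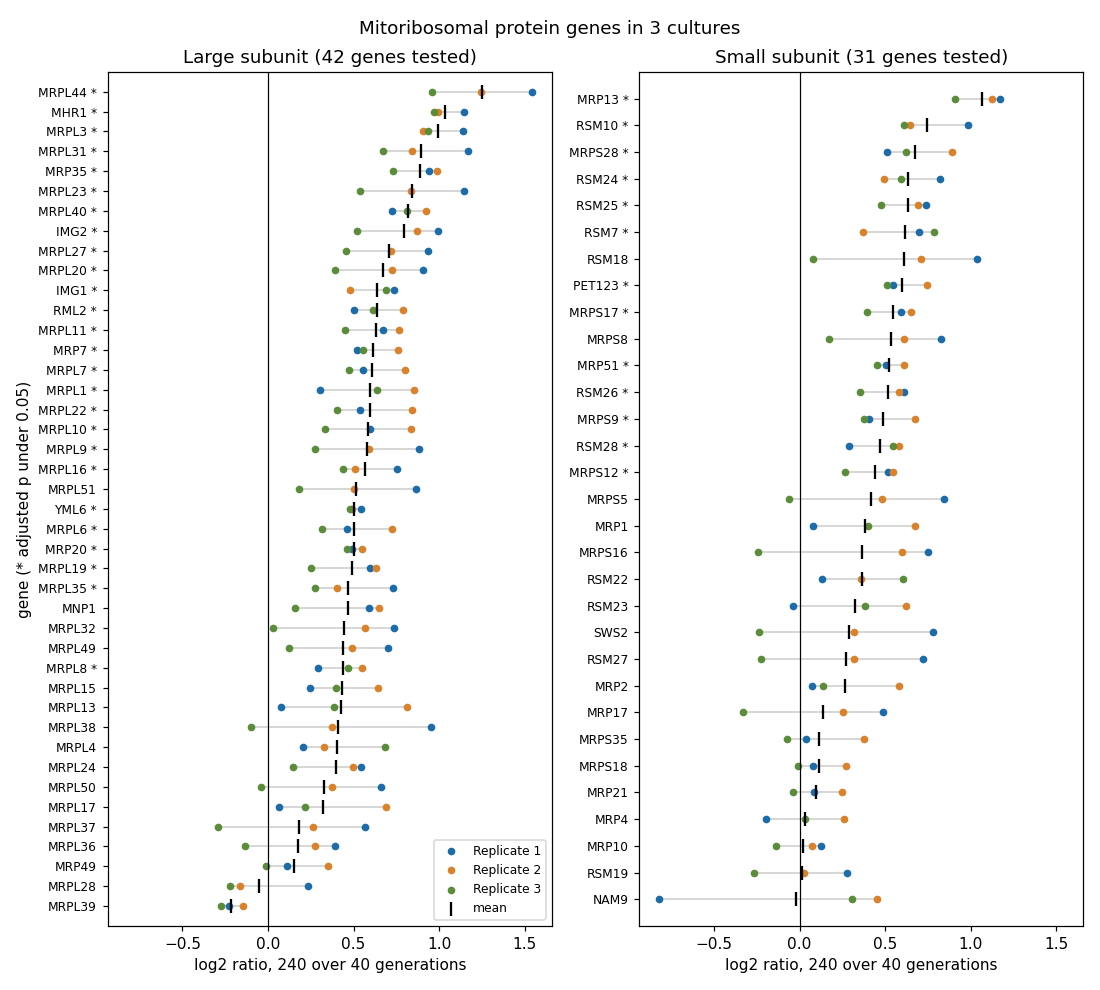
Log2 ratio of 240 over 40 generations (x axis) of each tested gene of the large and the small subunit (y axis), with a point for each of the 3 cultures, a black tick for their mean, and an asterisk for an adjusted p under 0.05. Most genes lie right of 0, from MRPL44 at a mean of 1.25 to MRPL39 at -0.22, and in many genes the point of Replicate 3 is the leftmost.

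In the large subunit, 26 of 42 tested genes were higher and 16 did not pass. MRPL44, which encodes a protein found only in mitochondrial ribosomes, had the highest mean. Its normalized signals, in arbitrary intensity units, were 418, 324 and 575 at 40 generations and 1216, 768 and 1117 at 240 generations in Replicates 1, 2 and 3. All 3 signals at 240 generations thus lay above all 3 at 40 generations. The log2 ratios were 1.54, 1.25 and 0.96, with a mean of 1.25 ± 0.29 (SD, n = 3, limma adjusted p = 0.0057).

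MHR1 encodes a large-subunit protein that also acts in the recombination of mitochondrial DNA. Its signals rose from 5821, 4778 and 5543 to 12855, 9511 and 10847, without overlap between the time points. The 3 cultures were close to each other, with log2 ratios of 1.14, 0.99 and 0.97 (1.03 ± 0.09, adjusted p = 0.0049). MRPL3, whose product is related to ribonuclease III, had signals of 2767, 2342 and 3248 at 40 generations and 6099, 4387 and 6204 at 240 generations. Again the time points did not overlap, and the log2 ratio was 0.99 ± 0.13 (adjusted p = 0.0055). The next genes in the order were MRPL31 (0.89 ± 0.25, adjusted p = 0.011), MRP35 (0.89 ± 0.14, adjusted p = 0.0075) and MRPL23 (0.84 ± 0.31, adjusted p = 0.015). The SDs of these neighbours span the distance between them, so that their order is not settled.

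At the other end of the large subunit, MRPL39 had signals of 381, 333 and 564 at 40 generations and 325, 300 and 467 at 240 generations. It was lower on each of the 6 arrays, yet it did not pass the test (log2 ratio -0.22, 95% interval from -0.48 to 0.04, adjusted p = 0.17). Its signals at the time points overlapped. MRPL28, a protein of the central protuberance, had log2 ratios of 0.23, -0.17 and -0.22 (mean -0.05, 95% interval from -0.38 to 0.28). MRP49, found only in mitochondrial ribosomes, had log2 ratios of 0.11, 0.35 and -0.01 (mean 0.15, 95% interval from -0.15 to 0.45). MRPL25 and MRPL33 allow no fold change.

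In the small subunit, 13 of 31 tested genes were higher and 18 did not pass. MRP13, which encodes a mitochondria-specific protein, had the highest mean of the subunit. Its signals were 702, 572 and 661 at 40 generations and 1585, 1247 and 1242 at 240 generations, without overlap. The log2 ratio was 1.07 ± 0.14 (adjusted p = 0.0050). RSM10, a protein of the head of the subunit, followed with 0.75 ± 0.21 (adjusted p = 0.014), and the 95% intervals of both genes overlapped. Its signals of 1043, 758 and 753 at 40 generations lay below those of 2065, 1187 and 1148 at 240 generations.

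The genes after these differed little from each other. They were MRPS28, a protein of the platform (0.67 ± 0.19), the mitochondria-specific proteins RSM24 (0.64 ± 0.17) and RSM25 (0.64 ± 0.14), and RSM7 of the head (0.62 ± 0.22), with adjusted p values between 0.016 and 0.023. RSM7 had signals of 3235, 3242 and 1988 at 40 generations and 5242, 4197 and 3427 at 240 generations. The time points did not overlap, and the signals of Replicate 3 were the lowest at both.

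Several small-subunit genes had a mean near 0. RSM19 had log2 ratios of 0.28, 0.03 and -0.27 (95% interval of the mean from -0.33 to 0.36) and MRP10 of 0.13, 0.07 and -0.14 (from -0.26 to 0.30). NAM9, found in yeast as a nuclear suppressor of mitochondrial mutations and the counterpart of a bacterial small-subunit protein, had the widest spread of all members. Its signal fell from 3532 to 2002 in Replicate 1 but went from 3085 to 4229 in Replicate 2 and from 4354 to 5383 in Replicate 3. The log2 ratios were -0.82, 0.45 and 0.31, with both arrays of each culture on the same side of 0 (-0.76 and -0.88 in Replicate 1). Without Replicate 1 the mean of NAM9 was 0.38 and passed the test (limma, adjusted p = 0.022), against -0.02 with all cultures (adjusted p = 0.96). This setting leaves out the culture with the opposite sign. It also called many more genes, with 1249 higher and 1275 lower of 5571, against 767 and 746 with all cultures.

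The share of higher genes was 61.9% in the large and 41.9% in the small subunit, and the median log2 ratios were 0.51 and 0.42. By culture, the large-subunit median was 0.60, 0.65 and 0.40 and the small-subunit median 0.51, 0.58 and 0.31 in Replicates 1, 2 and 3. The difference between the medians was small but of one sign, 0.09, 0.07 and 0.10 (mean 0.08 ± 0.01, SD, n = 3), and the large-subunit median was the higher on each of the 6 arrays. The range within a subunit was many times this difference, and no p is given for it, as the genes were chosen with results of these data known. It also moved with the processing, to 0.18 with the deposited log2 ratios against 0.09 for the medians of the means over cultures.

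**Figure D2:**
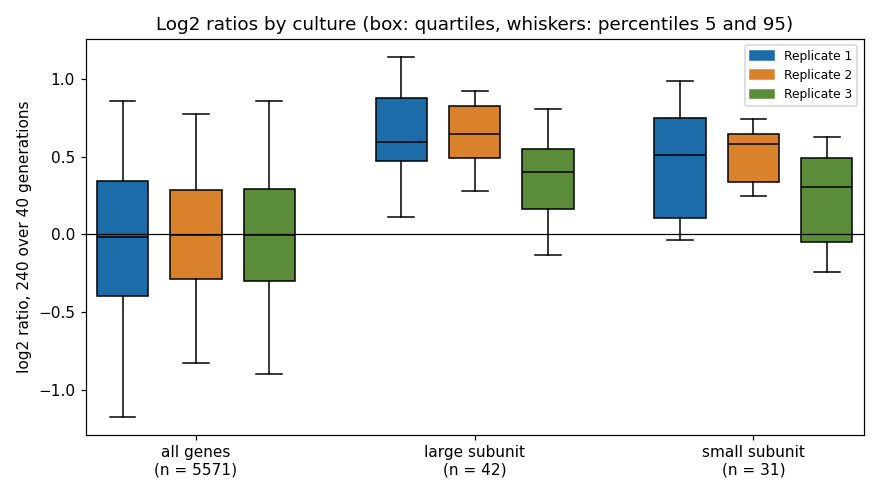
Box plots of the log2 ratio of 240 over 40 generations (y axis) in each culture, for all genes tested and for the genes of the large and the small subunit (boxes are quartiles, the line is the median, whiskers reach percentiles 5 and 95). The medians of all genes lie near 0 in each culture, those of the large subunit between 0.40 and 0.65 and those of the small subunit between 0.31 and 0.58.

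Among 46 tested genes whose proteins have a counterpart in bacteria, 25 were higher (median of the means over cultures 0.50), and among 26 genes of proteins found only in mitochondria, 14 were higher (median 0.49). Within the cultures the medians were 0.55, 0.57 and 0.31 for the first kind and 0.67, 0.66 and 0.40 for the second. The second kind was thus higher by 0.12, 0.09 and 0.08 in Replicates 1, 2 and 3. The medians of the means, 0.497 for the first kind and 0.494 for the second, were nearly equal and in the opposite order. The sign of the difference therefore depended on the summary used, and no p is given for this difference either. The 4 members with the highest means, MRPL44, MRP13, MHR1 and MRPL3, are of the second kind. In the small subunit the genes with a bacterial counterpart had 7 of 19 higher, and those in the large subunit 18 of 27.

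The members were also grouped by the place of the protein in the ribosome. The share of higher genes was 52% over all members and 13.8% over all genes tested. The tunnel through which the nascent chain leaves, with its exit, had 6 of 8 genes higher. Its log2 ratios ran from 0.41 in MRPL4 to 0.99 in MRPL3, and all 8 genes were positive on all 6 arrays. MRPL4 itself did not pass (adjusted p = 0.073). Around the peptidyl transferase center, where peptide bonds are formed, all 3 genes were higher, within a narrow range from 0.57 ± 0.17 for MRPL16 to 0.63 ± 0.15 for RML2.

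In the stalk and factor-binding region, which receives the elongation factors, 2 of 3 genes were higher, among them MRPL11 (0.63 ± 0.16), while MNP1 had 0.47 ± 0.27 (adjusted p = 0.056). The central protuberance had 3 of 6 genes higher, with MRP7 at the top (0.61 ± 0.13). In the small subunit, the head had 4 of 9 genes higher, and the group of the decoding center and body 2 of 6, among them MRPS17 (0.55 ± 0.14). The platform had 1 of 5, MRPS28, and a median of 0.14, with MRP21 at 0.10 ± 0.14. These groups are small, and neither the differences between them nor those from the 52% over all members were tested.

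The 3 cultures did not carry the rise equally. Positive log2 ratios were measured for 71 of the 75 members in Replicate 1, 72 in Replicate 2 and 56 in Replicate 3, with medians of 0.55, 0.58 and 0.38. The lowest value of a member was in Replicate 3 for 54 genes, in Replicate 1 for 17 and in Replicate 2 for 4. On the single arrays the median of the members ran from 0.35 to 0.63. The exchange of the dyes moved a member by a median of 0.12 on the log2 scale, less than the median SD over cultures of 0.23. Across the 75 members, Pearson's r was 0.84 to 0.91 between the 2 arrays of a culture and 0.40 to 0.78 between cultures, where the points share the arrays and the normalization of a culture and are not independent.

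Gene length moved with these differences between cultures. Members are short, with a median annotated length of 699 bases against 1263 for all genes tested. Over the members, the difference between Replicates 1 and 3 had a Spearman's rho of -0.62 with length (n = 75), and over the other genes with an annotated length -0.41 (n = 5324). Among the 26 members under 500 bases, 25 had their lowest value in Replicate 3, and the medians of the 3 cultures were 0.71, 0.50 and 0.03. Among the 12 members of 1000 bases and over, 7 had their lowest value in Replicate 1, and the medians were 0.40, 0.60 and 0.50. The trend had the same sign in the members and in the other genes.

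Beside other genes of like length the members were still the higher. The 524 other genes under 500 bases had medians of 0.05, -0.07 and -0.23, and the 3393 others of 1000 bases and over had -0.11, -0.02 and 0.03. In each of 12 combinations of length class and culture, the median of the members exceeded that of the other genes. With the trend on length removed in each culture, 43 members were higher and 0 lower, and the medians of the 3 cultures were 0.44, 0.56 and 0.38. These 43 were 57.3% of the members tested, against 15.6% higher over all genes tested. Without the correction the shares were 52% and 13.8%. Of the 39 members higher without it, 37 remained, and MRPL8 and MRPL35 did not pass. RSM18, MNP1, MRPL49, RSM22, MRPS8 and MRPL51 passed in addition. The low value of NAM9 in Replicate 1 was still -0.77.

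**Figure D3:**
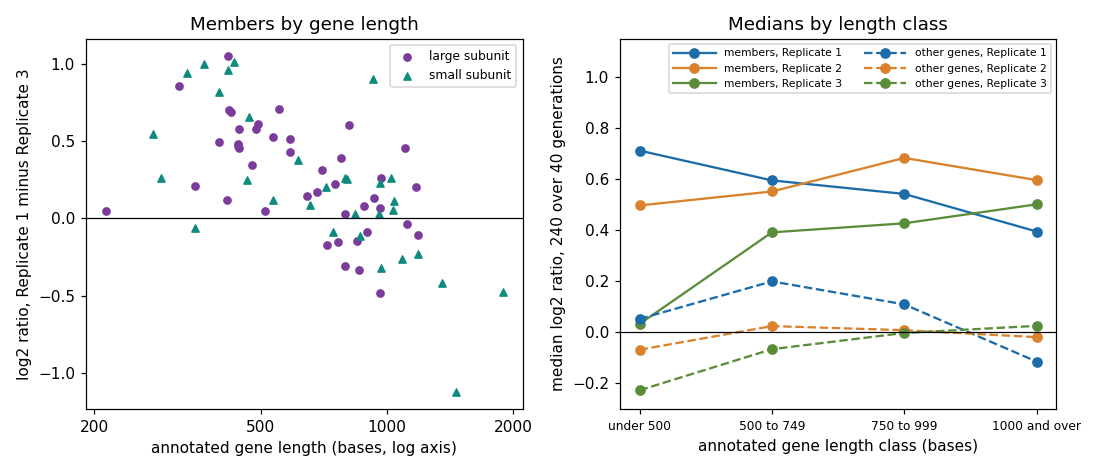
Left, difference of the log2 ratios of Replicate 1 and Replicate 3 (y axis) against annotated gene length in bases (log x axis) for the tested members of each subunit. Right, median log2 ratio of members (solid) and of all other genes (dashed) in 4 length classes and 3 cultures; short members are high in Replicate 1 and near 0 in Replicate 3 (medians 0.71 and 0.03), and members lie above other genes of the same class and culture throughout.

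The members with the widest spread besides NAM9 were short genes that were positive in Replicates 1 and 2 and negative in Replicate 3. MRPS16 had 0.75, 0.60 and -0.25, MRPL38 0.95, 0.37 and -0.10, and SWS2, a protein of the head, 0.78, 0.32 and -0.23. None of them passed (adjusted p = 0.23, 0.19 and 0.32). RSM22, a methyltransferase-like protein that takes part in small-subunit assembly, showed the opposite order, 0.13, 0.36 and 0.61 (adjusted p = 0.090), and at 1887 bases it is the longest member. Of the genes outside the ribosome, YMR31 had 0.13 ± 0.15 (adjusted p = 0.44) and MRP8, whose function is not known, -0.24 ± 0.34 (adjusted p = 0.29), the lowest mean of all members.

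The number of calls depended on the cultures included. Without Replicate 1, 50 members were higher; without Replicate 2, 4 were, and without Replicate 3, 17. With both time points taken as unpaired samples, 6 were higher. The share over all genes tested moved with it, to 22.4%, 2.06% and 4.83% without each culture in turn and to 3.46% without pairing, against 66.7%, 5.33%, 22.7% and 8% of the members. MRPL44, MHR1, MRPL3 and MRP13 were called in each of these settings and in all others tried.

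Of the other genes of mitochondrial translation, those of the general translation factors moved most like the ribosome. Here 4 of 7 tested genes were higher and none was lower (27.2% of all genes tested passed in either direction), with a median log2 ratio of 0.51. These were IFM1, the initiation factor (0.73 ± 0.19, adjusted p = 0.014), MRF1, the release factor (0.66 ± 0.14, adjusted p = 0.015), TUF1, the elongation factor that delivers aminoacyl-tRNA (0.61 ± 0.06, adjusted p = 0.015), and MEF1, the elongation factor of translocation (0.51 ± 0.24, adjusted p = 0.041). The 4 genes measure between 1242 and 2286 bases, all above the members' median length.

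In contrast, none of 16 translational activators, which act on single mitochondrial mRNAs, passed the test. An unadjusted p under 0.05 (limma) was found for 3 of the 16, against 2402 of the 5571 genes tested. The median of the activators was 0.05, and their values ran from -0.42 to 0.46. Of 10 assembly factors, MAM33, an acidic matrix protein (0.87 ± 0.13, adjusted p = 0.0077), and PET56, the methyltransferase of the large ribosomal RNA (0.66 ± 0.18, adjusted p = 0.017), were higher and none was lower, that is 20% called in either direction. Of 7 inner membrane genes, OXA1, the insertase that binds translating mitoribosomes (0.60 ± 0.33, adjusted p = 0.040), and YLH47 (0.62 ± 0.27, adjusted p = 0.027) were higher, that is 28.6%. Both shares are near the 27.2% of all genes tested.

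Among 8 genes of mitochondrial transcription and RNA processing, MTF1, the specificity factor of the mitochondrial RNA polymerase, was higher with log2 ratios of 0.91, 0.92 and 1.06 (0.96 ± 0.08, adjusted p = 0.0053). SUV3, an RNA helicase of mitochondrial RNA turnover, was higher too (0.59 ± 0.05, adjusted p = 0.016), while RPM2, the protein subunit of mitochondrial ribonuclease P, was lower with log2 ratios of -0.68, -1.25 and -1.08 (adjusted p = 0.0099). The list therefore did not move one way. Of 8 regulators tested, HAP3, a subunit of the CCAAT-binding complex, was higher (0.53 ± 0.31, adjusted p = 0.049), and SFP1, which regulates genes of the cytosolic ribosome, was lower (-0.41 ± 0.04, adjusted p = 0.038), together 25% of the list, again near the share of all genes. The other subunits of the CCAAT-binding complex did not pass and did not share one sign: HAP4, its activating subunit, had log2 ratios of -1.13, -0.46 and -0.32 (mean -0.64, adjusted p = 0.0503), HAP2 a mean of -0.20 (adjusted p = 0.21) and HAP5 a mean of 0.34 (adjusted p = 0.25). Of 5 tested mitoribosomal genes outside the naming rule, none passed, against 27.2% of all genes tested, and the median was 0.25. An unadjusted p under 0.05 (limma) was found for 1 of the 5, against 2402 of the 5571 genes tested. Under 500 bases in length were 4 of the 5. VAR1, the mitochondrially encoded member of the ribosome, was not above background on any array and was not tested. Whether the labelling captured its RNA was not examined, so its RNA level stays unknown here.

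**Figure D4:**
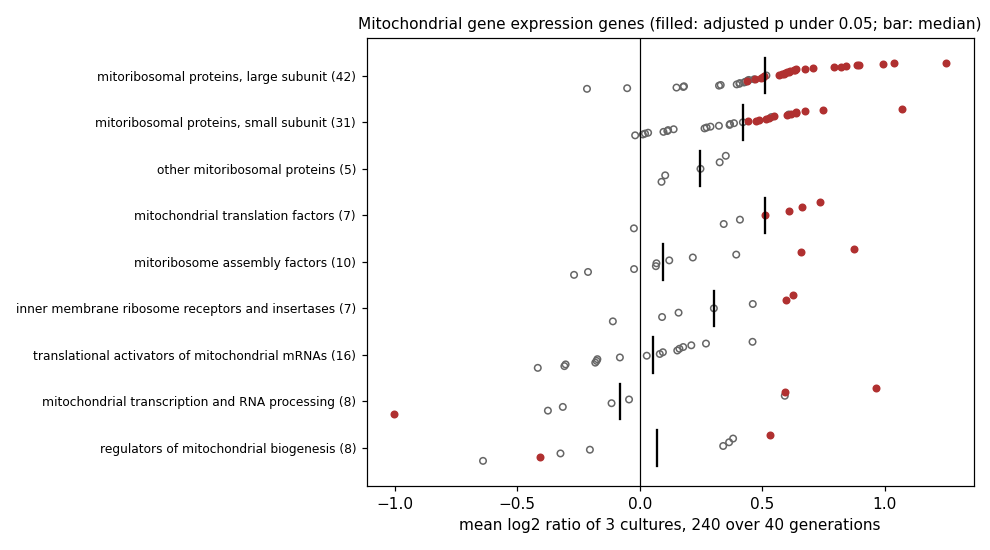
Mean log2 ratio over 3 cultures, 240 over 40 generations (x axis), of the tested genes in each group (y axis, number of genes in parentheses), filled where the adjusted p is under 0.05, with a bar at the median. The subunits and the translation factors have medians of 0.51, 0.42 and 0.51, the translational activators of 0.05.

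The genes of the cytosolic ribosome gave the opposite sign on the same arrays. Of 81 large-subunit genes tested, 38 were lower and none was higher (median -0.60). Of 55 small-subunit genes, 30 were lower and none was higher (median -0.60), against 13.4% of all genes lower. The paper also lists ribosomal protein genes among those downregulated. Many genes of the cytosolic ribosome exist in near-identical pairs whose probes may share signal. In Replicates 1, 2 and 3 their large-subunit medians were -0.27, -0.67 and -0.78 and their small-subunit medians -0.25, -0.68 and -0.87. Like the mitoribosomal genes, they thus had their lowest median in Replicate 3. For the cytosolic genes this was the largest fall, for the mitoribosomal genes the smallest rise. The cytosolic genes tested had median annotated lengths of 795 (large subunit) and 768 bases (small subunit), against 1263 for all genes tested. The bearing of length on their order of cultures was not tested.

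The tested members lay on every nuclear chromosome but I. The medians of all genes of a chromosome ran from -0.08 to 0.02, while those of its members ran from 0.13 to 0.72. Chromosome IV held 13 tested members, of which 10 were higher, and chromosome XIV 12, of which 6 were. The share of higher genes was 52% over all members tested and 13.8% over all genes tested. Differences between chromosomes were not tested. Next to each other in the annotation lay MRPS12 (0.44 ± 0.15) and RSM19 (0.01 ± 0.27).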

How the data were processed

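The data were 6 arrays of 2 colors. The deposited scanner files, extracted by the authors with GenePix Pro, hold spot and background medians as intensity without normalization. Per the file headers they also give saturation as a percent of pixels and a score that marks spots not found. The deposited log2 ratios were normalized and averaged by the authors in Acuity, by a method not given in the sources used here; values of exactly 0 were treated as missing, and they served as an alternative. A second deposited table of the same log2 ratios was not used here. The dye assignment stands in the names of the array files.

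In R 4.3.3 with limma 3.58.1, background was corrected with normexp (offset 50), arrays were normalized by loess with control spots at weight 0, and averages were taken over the 2 spots per gene, then over both arrays per culture. Signals were made comparable between arrays by quantile normalization of the average intensities (Aquantile). Ratios of the 3 cultures entered lmFit and eBayes, and the procedure was tested on simulated data. Time points are paired by culture and array. The precision is limited by the number of cultures. Systematic names were matched to RefSeq (R64) for 5753 of 6252 genes; 4 further genes were left out.

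The members and lists were chosen with earlier results of these data known. Named are, per subunit, the 6 higher genes with the largest mean and the 3 lowest; the 4 with the largest SD; those below background; YMR31, MRP8 and RSM22; up to 2 per site; and up to 4 genes past the test per related list. Genes whose calls changed under the length correction, VAR1, MRPS12, IMG2, RSM26, MRPL19, HAP2, HAP4 and HAP5 were named after their values were seen. Alternatives were other background corrections, median centring, scaling, filters, priors, a single dye orientation, no pairing, each culture left out, the deposited ratios, a length correction and the study's criteria, and, chosen after seeing the data, members by array names alone and these criteria on the deposited ratios.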

Additional observations from a re-analysis of the deposited data

How the results depend on the processing

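The count of higher members ranged from 4 to 50 when each culture was left out and was 6 without the replicate block, that is with unpaired time points; it was 4 with the study's criteria on the ratios computed here and 8 with these criteria on the deposited ratios, an alternative chosen after seeing the data. For the large subunit these counts were 3 to 32 and 5, for the small subunit 1 to 18 and 1, for genes of the related lists 1 to 30 and 4, for all higher genes 115 to 1249 and 193, and for all lower genes 155 to 1275 and 250. The median of the members stayed between 0.42 and 0.60. The large-minus-small difference, 0.09, was 0.12 with no background correction or with spots not found left out, 0.17 with plain subtraction or median centring, 0.16 with signal at both times on all arrays or with 240 generations in Cy5 only, 0.18 with the deposited ratios and 0.0859 to 0.112 with a culture left out. The cause of these shifts was not tested. No member was called lower in any setting. Of the members followed singly, those with a mean near 0 changed sign in 11 instances. With median centring RSM19 was at -0.014 and YMR31 at -0.0051, with 240 generations in Cy5 only NAM9 was at 0.014, and in Cy3 only RSM19 was at -0.088 and MRP10 at -0.0032. With each culture left out in turn, NAM9 ran from -0.26 to 0.38, RSM19 from -0.12 to 0.15, MRP10 from -0.033 to 0.10 and MRPL28 from -0.19 to 0.034. Of these, NAM9 without Replicate 1 passed the test (limma, adjusted p = 0.022), in the setting with 1249 genes higher and 1275 lower. Signal over background limits MRPL25, MRPL33 and MRPS35. It also limits 2 of the higher genes, RSM26 and MRPL19, which were above background at 40 generations on 4 and 5 of 6 arrays. Both drop out when signal is required at both times on all arrays. MRPL19 was also not called with the deposited ratios.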
